A study of Mus musculus with 12 samples.

Results

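The genes described are 10 feedback regulators of the ERK pathway: the Sprouty genes Spry1, Spry2 and Spry4, the Sprouty-related genes Spred1 and Spred2, the phosphatase genes Dusp4, Dusp5 and Dusp6, and Phlda1 and Ier3. They were taken by gene symbol, with no threshold on a measured value, and all 10 were found among the 24421 genes of each deposited table. Gene expression was measured by polyA RNA sequencing of bulk mouse tissue in 12 libraries, 3 in each of 4 groups. ETV5 tumours were ependymomas of genotype ZFTA-RELA that also overexpressed human ETV5, and NPY tumours were ZFTA-RELA ependymomas that also overexpressed human NPY. Control tumours carried ZFTA-RELA alone, and cortex was wild-type tissue without tumour. All 9 tumour libraries thus share the fusion, and no group holds tumour tissue without it. ETV5 is a transcription factor of the ETS family, NPY is the precursor of neuropeptide Y, and ZFTA-RELA joins ZFTA to RELA, a subunit of NF-kB. The labels give no age, sex or strain, no promoter for the added genes and no way in which the tumours were started. They also do not say whether each library came from its own animal, so p-values measure only the spread between these samples. In bulk tissue, fewer cells of a type and less RNA per cell cannot be told apart.

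ERK is the last kinase of a cascade that runs from receptor tyrosine kinases through RAS, RAF and MEK, and it switches on genes whose products then damp the same cascade. Sprouty proteins act between the receptor and RAF, Spred proteins bring the RAS-inactivating protein neurofibromin to the membrane, and the DUSP proteins take phosphate off ERK itself. Because their transcription follows ERK activity in many cells, several of these genes are commonly read as outputs of the pathway. ETS factors, ETV5 among them, are themselves induced downstream of fibroblast growth factor receptors and ERK, and in the developing brain and lung Sprouty genes are expressed near sources of fibroblast growth factor. Ier3 differs from the rest, because its protein is an ERK substrate that was found in cultured mammalian cells to prolong ERK activity, and because it is a well-known target of NF-kB.

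The regions before the start sites were read for the genes that the tumour results turn on, since an ETS factor was added to one tumour group and the fusion holds an NF-kB subunit. RefSeq's promoter table (GRCm38.p6) held 7 of the 10 genes. Spry4, Dusp4 and Phlda1 were the others. Windows and distances here refer to the RefSeq start. The gene positions given further below are from GENCODE M21, which places some starts elsewhere. It starts Ier3 at 35821684, Spred2 at 19924375 and Dusp5 at 53529109, inside their windows, and Spred1 at 117121374, beyond the end of its window. The 250 bases before the start are shown 5′ to 3′ on the strand of the gene for Spry1 (chr3:37639697-37639946, plus strand), Spry2 (chr14:105896820-105897069, minus strand), Dusp6 (chr10:99262981-99263230, plus strand) and Ier3 (chr17:35821463-35821712, plus strand). The first 3 are the genes that stood highest in 1 ETV5 library together with Spry4, and Ier3 is the gene with the widest gap between tumours and cortex. Capitals mark every match to the 5 motifs searched, on either strand.
Spry1: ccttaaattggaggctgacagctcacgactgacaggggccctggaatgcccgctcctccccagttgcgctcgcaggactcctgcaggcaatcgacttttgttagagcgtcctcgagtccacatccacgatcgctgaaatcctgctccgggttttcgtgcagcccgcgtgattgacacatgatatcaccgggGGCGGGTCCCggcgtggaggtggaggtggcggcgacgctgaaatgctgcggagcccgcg
Spry2: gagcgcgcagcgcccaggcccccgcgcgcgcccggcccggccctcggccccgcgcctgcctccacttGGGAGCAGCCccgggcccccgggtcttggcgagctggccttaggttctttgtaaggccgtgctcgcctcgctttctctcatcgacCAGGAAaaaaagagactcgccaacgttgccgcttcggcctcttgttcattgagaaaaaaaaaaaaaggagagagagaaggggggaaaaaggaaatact
Dusp6: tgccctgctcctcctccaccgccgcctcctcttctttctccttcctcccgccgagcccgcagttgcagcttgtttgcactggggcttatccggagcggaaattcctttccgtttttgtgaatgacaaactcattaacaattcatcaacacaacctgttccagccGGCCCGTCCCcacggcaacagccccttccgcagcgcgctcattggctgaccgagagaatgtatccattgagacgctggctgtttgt
Ier3: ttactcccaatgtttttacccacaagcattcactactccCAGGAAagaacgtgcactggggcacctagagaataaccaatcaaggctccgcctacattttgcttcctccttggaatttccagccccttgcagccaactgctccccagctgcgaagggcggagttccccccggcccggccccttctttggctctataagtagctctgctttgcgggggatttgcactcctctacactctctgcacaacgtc

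The ETS core was searched in the forms CCGGAA and CAGGAA, the AP-1 site as TGANTCA, part of the cyclic AMP response element as TGACG, and the NF-kB site as GGGA followed, after 4 bases of any kind, by CC. CAGGAA lay 98 bases before the Spry2 start and 211 bases before the Ier3 start, and 3 of the 7 windows held it, against 25.7% of all 32851 windows of that length in the table. CCGGAA was in 0 of the 7 windows and in 3952 of all 32851 windows. This loose pattern for NF-kB was in 5 of the 7 windows and in 17.6% of all windows. Among the 5 were Spry1 at 59 bases, Dusp6 at 86 bases and Spry2 at 183 bases before the start. These are counts of the pattern and not of NF-kB sites. The windows of Ier3 and Spred1 held 0 exact matches to this pattern. Strings that depart from it by 1 base, such as tggaatttcc in the Ier3 window, were not counted. The 0 thus does not show that these windows lack an NF-kB site. TGACG was in 2 of the 7 windows and in 17.8% of all, and TGANTCA was in 0 of the 7 and in 6.75% of all. No searched motif overlapped another in the 4 windows shown. For each of the 7 genes 1 window was read, whereas every window in the promoter table was counted for the shares over all. The GC content of the 7 windows was 54.4% to 70.8%, and the other windows were not matched to them for it. The matches describe letters in the windows and do not show that a factor binds there.

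Depth was 6691146 to 11291057 reads per ETV5 tumour library, 8214523 to 10481943 per NPY tumour library, 6266613 to 9443466 per control tumour library and 5962376 to 7444467 per cortex library. Levels are CPM, the recovered reads of a gene scaled to the same total in every library, with mean ± SD over 3 libraries. Log2 fold changes are from limma on log2(deposited value + 1), a scale that understates the changes of low genes. A gene is called where its Benjamini-Hochberg adjusted p, over all genes tested in that comparison, lies under 0.05. The added genes were human and the counted genes were mouse, so the counts are no direct check of the overexpression labels. Mouse Npy was counted at 2.19 to 15.9 CPM in NPY tumours, against 21.5 to 46.1 CPM in control tumours, and mouse Etv5 at 401 to 474 CPM in ETV5 tumours, against 264 to 322 CPM in control tumours. The 8 markers of cortical excitatory neurons, which define the labelled tissue, summed to 5770 to 7192 CPM in cortex libraries and to at most 778 CPM in any tumour library. The 6 genes listed for fusion-driven tumours summed to 6575 to 9529 CPM over the 9 tumour libraries, against 281 to 324 CPM in cortex. Library codes in the labels begin with 1 of 2 prefixes: the NPY tumours and ETV5 replicate 3 carry one, and all other libraries carry the other.

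Among the Sprouty genes, which block the step from receptor to RAF, Spry1 (chromosome 3, 37639947 to 37644598, plus strand, mm10) stood at 18.2, 113 and 39.7 CPM in ETV5 tumours and at 10.3, 9.86 and 13.3 CPM in NPY tumours. In control tumours it stood at 17.9, 16.1 and 17.6 CPM, and in cortex at 9.67, 10.4 and 10.3 CPM. ETV5 replicate 2 held more than any other library, ETV5 replicate 1 lay just above the control tumours, and the NPY libraries all lay below the control tumours and overlapped cortex. Spry2 (chromosome 14, 105891947 to 105896819, minus strand) stood at 42.5, 104 and 45.9 CPM in ETV5 tumours and at 23.8, 22.4 and 21.0 CPM in NPY tumours. Its control tumours had 34.4, 39.0 and 50.1 CPM, and its cortex libraries 49.4, 57.5 and 50.8 CPM. The NPY libraries were lowest and overlapped no other group, whereas 2 of the 3 ETV5 libraries lay within the range of the control tumours. Spry4 (chromosome 18, 38586247 to 38601415, minus strand) stood at 89.0, 219 and 95.7 CPM in ETV5 tumours and at 54.8, 83.3 and 53.4 CPM in NPY tumours. It had 53.7, 53.4 and 60.0 CPM in control tumours and 14.1, 16.4 and 15.03 CPM in cortex. Every tumour library exceeded every cortex library for Spry4, and every ETV5 library exceeded every other tumour library. The remaining family member, Spry3, had 0 reads in all 12 libraries.

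**Figure D1:**
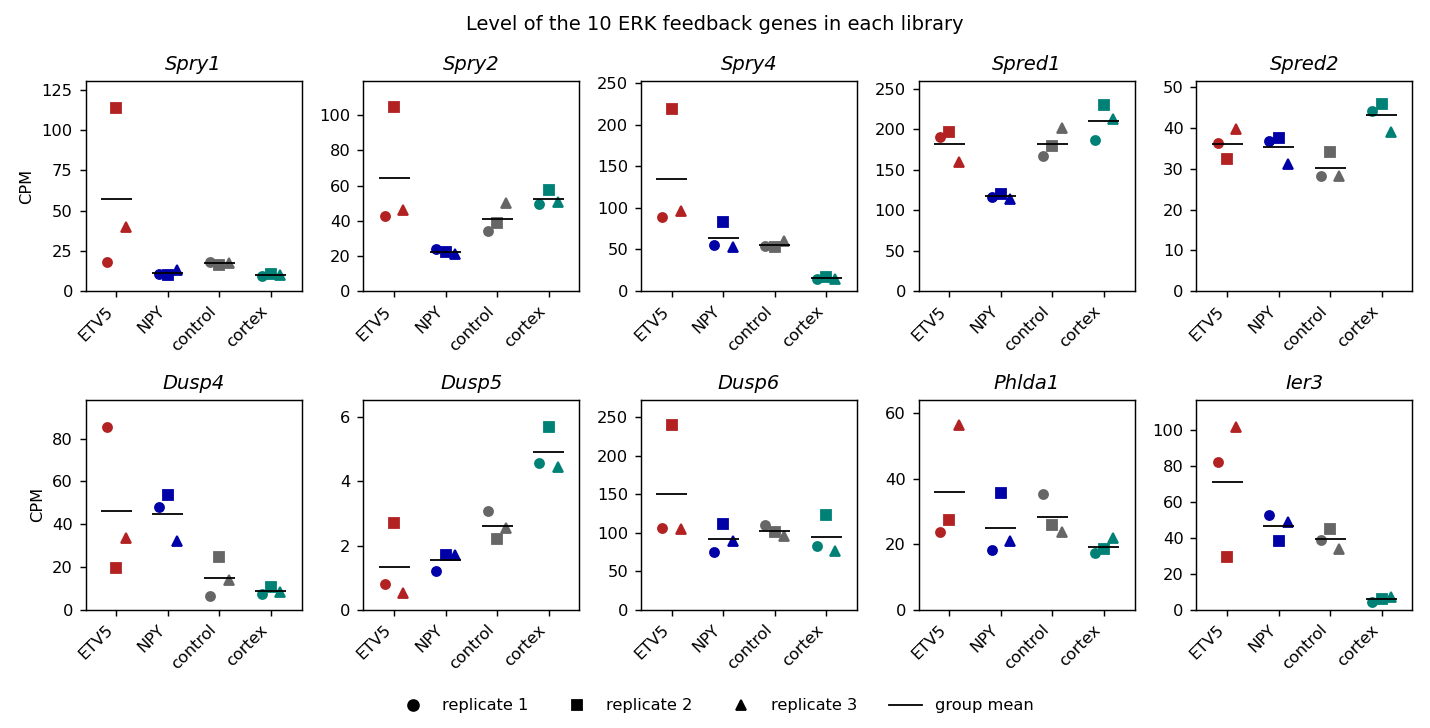
CPM (vertical axis, from 0, with its own scale for each gene) of the 10 genes in the 3 libraries of ETV5 tumours, NPY tumours, control tumours and cortex, with marker shape for the replicate number and a line for the group mean. In ETV5 tumours the square of replicate 2 stands far above the other libraries for Spry1 at 113 CPM, Spry2 at 104 CPM, Spry4 at 219 CPM and Dusp6 at 240.0 CPM, and it is the lowest of the 3 for Dusp4 at 19.4 CPM and Ier3 at 29.3 CPM.

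The Spred genes act on RAS through neurofibromin and varied far less. Spred1 (chromosome 2, 117121374 to 117182279, plus strand) stood at 191, 196 and 159.8 CPM in ETV5 tumours and at 116, 120.4 and 114 CPM in NPY tumours. Control tumours had 167, 179 and 201 CPM, and cortex had 187, 230.4 and 213 CPM. All 3 NPY libraries lay below all 9 others, which overlapped among themselves. Spred2 (chromosome 11, 19924375 to 20024026, plus strand) stood at 36.3, 32.3 and 39.7 CPM in ETV5 tumours, 36.9, 37.5 and 31.3 CPM in NPY tumours, 28.2, 34.0 and 28.2 CPM in control tumours and 44.2, 46.0 and 39.1 CPM in cortex. The tumour groups overlapped, and cortex was highest, with 1 ETV5 library reaching its range.

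Of the DUSP genes, which code for phosphatases that inactivate MAP kinases, Dusp6 makes the cytoplasmic enzyme specific to ERK (chromosome 10, 99263231 to 99267489, plus strand). It stood at 106, 240.0 and 105 CPM in ETV5 tumours, 74.8, 111 and 89.8 CPM in NPY tumours, 110.1, 101 and 95.7 CPM in control tumours and 82.6, 123 and 76.7 CPM in cortex. ETV5 replicate 2 was the one library above 123 CPM, and the groups overlapped. Dusp4, whose product is a nuclear phosphatase (chromosome 8, 34807297 to 34819894, plus strand), stood at 85.4, 19.4 and 33.6 CPM in ETV5 tumours and at 48.2, 53.6 and 32.2 CPM in NPY tumours. Control tumours had 6.35, 24.5 and 14.0 CPM, and cortex had 7.52, 10.7 and 8.07 CPM. The NPY libraries all lay above the control tumours, and ETV5 replicate 2 lay inside the control range. Dusp5, which codes for a nuclear phosphatase specific to ERK (chromosome 19, 53529109 to 53542431, plus strand), was the lowest of the 10. It had 0.787, 2.69 and 0.531 CPM in ETV5 tumours, from 6, 18 and 6 reads, and 1.21, 1.70 and 1.72 CPM in NPY tumours. It had 3.07, 2.20 and 2.55 CPM in control tumours and 4.57, 5.70 and 4.45 CPM in cortex. All cortex libraries exceeded all tumour libraries, and the counting error of so few reads is large.

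Phlda1, a gene with a pleckstrin homology-like domain that is often counted among ERK outputs (chromosome 10, 111506286 to 111508645, plus strand), stood at 23.6, 27.3 and 56.3 CPM in ETV5 tumours and 18.2, 35.5 and 20.8 CPM in NPY tumours. Control tumours had 35.2, 25.9 and 23.6 CPM, and cortex had 17.2, 18.6 and 21.7 CPM. ETV5 replicate 3 was highest, and the tumour groups overlapped. Ier3, the immediate early gene described above (chromosome 17, 35821684 to 35822923, plus strand), stood at 82.1, 29.3 and 101 CPM in ETV5 tumours and 52.3, 38.0 and 48.7 CPM in NPY tumours. Control tumours had 38.4, 44.7 and 33.8 CPM, and cortex had 4.16, 5.87 and 7.10 CPM. Every tumour library exceeded every cortex library, while ETV5 replicate 2 was the lowest of the 9 tumour libraries. Exons of Spry1, Dusp5 and Phlda1 overlap a gene on the opposite strand in GENCODE M21, and whether the counting used strand is not given in the sources used here, so reads of the overlaps cannot be told apart.

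Per kilobase of exon, Ier3 and Dusp6 were the most abundant of the 10 in each tumour group. Ier3 reached 62.7 ± 33.0 CPM per kilobase in ETV5 tumours, 41.0 ± 6.59 in NPY tumours and 34.5 ± 4.82 in control tumours, against 5.05 ± 1.30 in cortex (SD, n = 3 each). In cortex Spred1, at 31.0 ± 3.19 CPM per kilobase, and Dusp6, at 30.1 ± 8.06, stood first, and these neighbours did not differ beyond their spread. Dusp5 was last in every group, at no more than 1.985 CPM per kilobase. Summed over the 10 genes, the level was 674.6, 984.4 and 677.5 CPM in ETV5 tumours, 436.9, 513.1 and 426.6 CPM in NPY tumours, 494.6, 520.1 and 526.9 CPM in control tumours and 420.8, 524.8 and 446.4 CPM in cortex. The ETV5 libraries had the 3 largest sums, and the other 3 groups overlapped.

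Control tumours were set against cortex to see how the genes stand in fusion-driven tumour tissue relative to tissue without tumour. Ier3, Spry4 and Spry1 were higher in control tumours, while Dusp5, Spred2, Spry2 and Spred1 were lower. The rise was largest for Ier3, at 39.0 ± 5.45 CPM in control tumours and 5.71 ± 1.47 CPM in cortex, a log2 fold change of 2.60 (SE 0.24, limma, adjusted p = 2.1e-05). Spry4 averaged 55.7 ± 3.73 CPM in control tumours and 15.2 ± 1.17 CPM in cortex, with a log2 fold change of 1.69 (SE 0.13, limma, adjusted p = 9.0e-06). Spry1 averaged 17.2 ± 0.970 CPM in control tumours and 10.1 ± 0.395 CPM in cortex, with a log2 fold change of 0.58 (limma, adjusted p = 0.0114). The genes that fell had log2 fold changes of -1.05 for Dusp5 (adjusted p = 0.0102), -0.69 for Spred2 (0.0030), -0.54 for Spry2 (0.0134) and -0.38 for Spred1 (0.0241), all by limma. Dusp4 (0.41, adjusted p = 0.4365), Phlda1 (0.37, 0.117) and Dusp6 (-0.02, 0.924) did not pass limma's test. The 7 calls compare with 72.0% of all 14621 genes tested, 35.7% called higher and 36.2% called lower, so the share called is near that of genes at large. Without overlap of the groups in CPM, 4 genes were higher and 2 lower, against 43.8% and 33.6% of all genes. The median log2 fold change was 0.17 over the 10 genes and -0.0032 over all genes tested. Genes of the Sprouty family moved in opposite directions, with Spry1 and Spry4 higher and Spry2 lower, although total-read scaling ended the Spry2 call and a fit over all 12 libraries those of Spry1 and Spry2.

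The calls of the smaller changes depended on the scaling and on single libraries. Scaling by total reads rather than by size factors moved the median of all genes by 0.16 on the log2 scale, ended the calls of Spry2 (-0.36, limma, adjusted p = 0.0685) and Spred1 (-0.20, 0.163) and added Phlda1 (0.52, 0.0306). A fit over all 12 libraries called 4 of the 10 genes and ended the calls of Spry1 (0.53, adjusted p = 0.354), Spry2 (-0.59, 0.0903) and Dusp5 (-1.10, 0.0625). Spred1 was not called without control replicate 1 (-0.32), cortex replicate 2 (-0.29) or cortex replicate 3 (-0.37), nor was Spry2 without cortex replicate 2 (-0.45), while Dusp4 was called without control replicate 1 (0.92) and Phlda1 without control replicate 3 (0.51). Cell type markers moved with this comparison: all 10 pan-neuronal markers and all 8 oligodendrocyte markers were lower in control tumours, while all 10 microglia and macrophage markers were higher, at sums of 2769 to 5820 CPM in control tumours and 411 to 463 CPM in cortex. Their part in the 7 calls was not tested.

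Other genes of the pathway, from lists of 26 other inhibitors, 25 members of the cascade, 20 receptors and 25 ERK-responsive genes, split as well. The counts of calls that follow compare with 35.7% of all genes tested called higher and 36.2% called lower, and no list was tested as a set. Of 24 other inhibitors tested, 4 were higher and 14 lower in control tumours than in cortex. Dusp2, a nuclear phosphatase of immune cells, rose (log2 fold change 2.67), as did Lrig1 (1.85), which limits receptors of the EGF family, and Dusp16 (1.47), while the RAS GTPase-activating gene Rasal1 (-4.06) and the phosphatase gene Dusp8 (-3.17), both well expressed in brain, fell. In the cascade, 5 of 25 were higher, with Rps6ka1 at 4.41, and 10 were lower, with Braf at -2.01. Of 20 receptors, 8 were higher, led by Erbb2 (5.25), Pdgfrb (3.28) and Fgfr1 (2.53), and 5 lower, led by Erbb4 (-2.99). Of 24 ERK-responsive genes tested, 14 were higher, led by Maff (4.92), Emp1 (4.57) and Atf3 (4.46), and 6 lower, led by Egr3 (-3.82), Epha4 (-3.00) and Fosb (-2.06). Pdgfrb is also 1 of the 9 genes in the list of mural cell and fibroblast markers, all of which were called higher in control tumours.

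**Figure D2:**
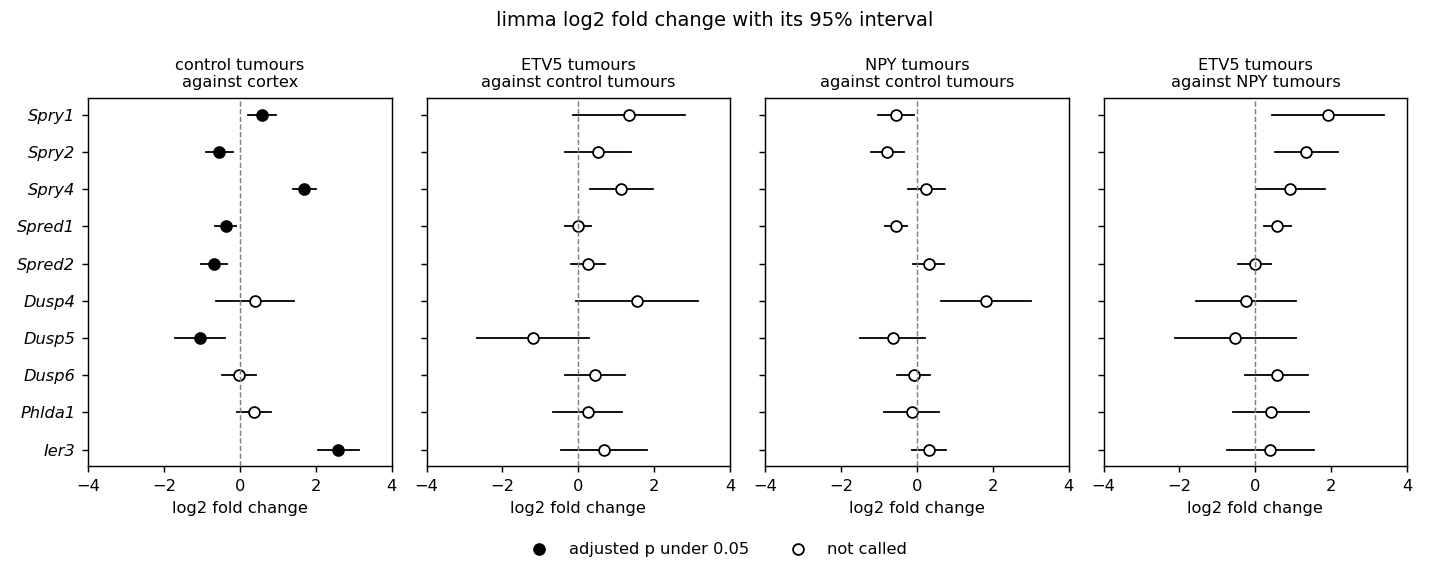
Log2 fold change (horizontal axis) of each gene in 4 comparisons with its 95% interval, where filled circles passed limma at an adjusted p under 0.05 and open circles did not. Against cortex, 7 of the 10 control tumour intervals are filled, and no gene is filled in the 3 comparisons among tumour groups, where the Sprouty intervals are wider with ETV5 than with NPY.

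The comparison of ETV5 tumours with control tumours asks what differs when the ETS factor is added to this tumour model. Most of the 10 genes averaged higher in ETV5 tumours, 8 of 10 in the fit, yet none passed the test, and the 3 ETV5 libraries differed widely from each other. Spry1 averaged 57.1 ± 49.9 CPM in ETV5 tumours and 17.2 ± 0.970 CPM in control tumours (log2 fold change 1.32, SE 0.62, limma, adjusted p = 0.732). Spry4 averaged 134.6 ± 73.3 CPM in ETV5 tumours and 55.7 ± 3.73 CPM in control tumours (1.13, SE 0.34, limma, adjusted p = 0.732, unadjusted p = 0.0144). Dusp4 averaged 46.1 ± 34.7 CPM in ETV5 tumours and 14.98 ± 9.13 CPM in control tumours (1.53, SE 0.67, limma, adjusted p = 0.732). The others had log2 fold changes of 0.68 for Ier3, 0.52 for Spry2, 0.43 for Dusp6, 0.25 for Spred2, 0.24 for Phlda1, -0.01 for Spred1 and -1.19 for Dusp5. The limma fit called 0 of all 14382 genes tested, 0.0%, although 944 had an unadjusted p under 0.05. DESeq2 called 75 genes, none of them among the 10, and edgeR called 0. Spry1 and Spry4 were the genes of the 10 whose ETV5 and control libraries did not overlap, both higher, against 7.1% of all genes, and 0 were lower without overlap, against 7.08%. The median log2 fold change was 0.47 over the 10 genes and -0.02 over all genes tested.

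The feedback genes varied widely among ETV5 libraries. Over the 9 genes with at least 5 CPM, the median coefficient of variation was 52.6% in ETV5 tumours, against a median of 22.8% over 12357 genes of that group. In the other groups the corresponding medians were 16.5% against 18.8% in NPY tumours, 11.1% against 15.9% in control tumours and 10.3% against 9.31% in cortex. Spry1 varied most, by 87.4%, above 95.3% of the genes in ETV5 tumours, followed by Dusp4 at 75.3%, while Spred1 at 10.8% and Spred2 at 10.3% varied little. ETV5 replicate 2 held 6.61 times the control mean of Spry1, 3.93 times that of Spry4, 2.54 times that of Spry2 and 2.34 times that of Dusp6, but 0.751 times that of Ier3. ETV5 replicates 1 and 3 held 1.06 and 2.31 times the control mean of Spry1, 1.03 and 1.11 times that of Spry2, and 2.11 and 2.60 times that of Ier3.

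**Figure D3:**
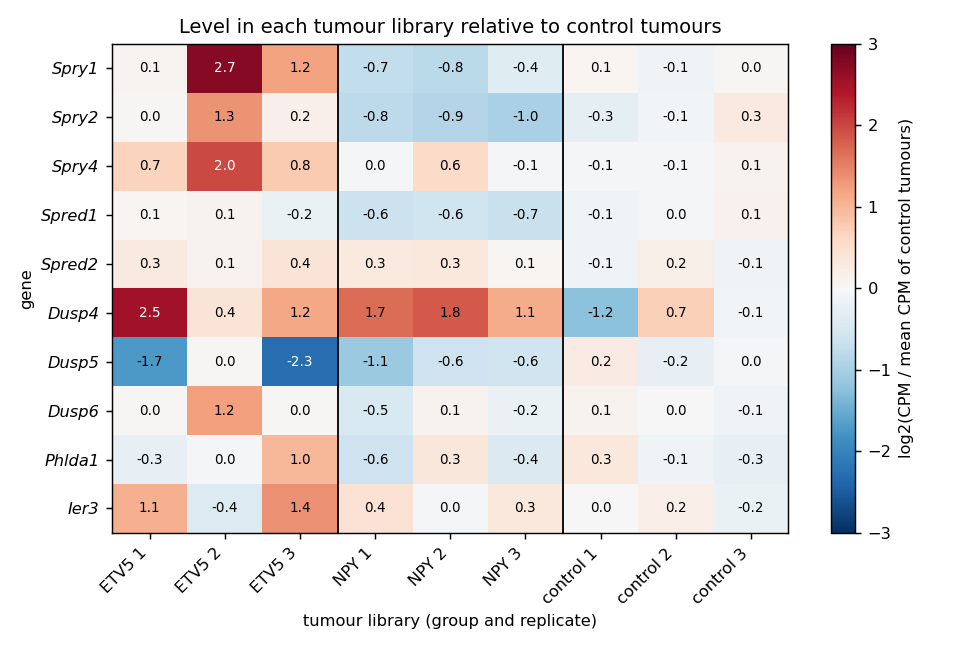
Log2 of each tumour library's CPM over the mean of the 3 control tumours (colour and printed value) for the 10 genes in rows and the 9 tumour libraries in columns. The Sprouty genes and Dusp6 are darkest red in ETV5 replicate 2, Ier3 is red in ETV5 replicates 1 and 3, and Dusp4 is red in all 3 NPY libraries and in ETV5 replicates 1 and 3.

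Of the 10 genes, 8 reached their highest tumour level in an ETV5 library, 2 in a control library and 0 in an NPY library, where 39.2%, 26.8% and 34.0% of all 12404 genes did. ETV5 replicate 2 was highest for Spry1, Spry2, Spry4 and Dusp6, ETV5 replicate 3 for Spred2, Phlda1 and Ier3, and ETV5 replicate 1 for Dusp4. Of all 12404 genes, 17.8% were highest in ETV5 replicate 2, 6.86% in ETV5 replicate 3 and 14.5% in ETV5 replicate 1. Leaving out ETV5 replicate 2 lowered the ETV5 against control log2 fold change to 0.64 for Spry1, 0.12 for Spry2, 0.73 for Spry4 and 0.04 for Dusp6, and raised it to 2.03 for Dusp4 and 1.23 for Ier3. Without ETV5 replicate 1, Spry1 stood at 1.97 and Dusp4 at 0.97, and without ETV5 replicate 3 Phlda1 stood at -0.17. None of the 10 genes was called by limma in any of these fits.

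**Figure D4:**
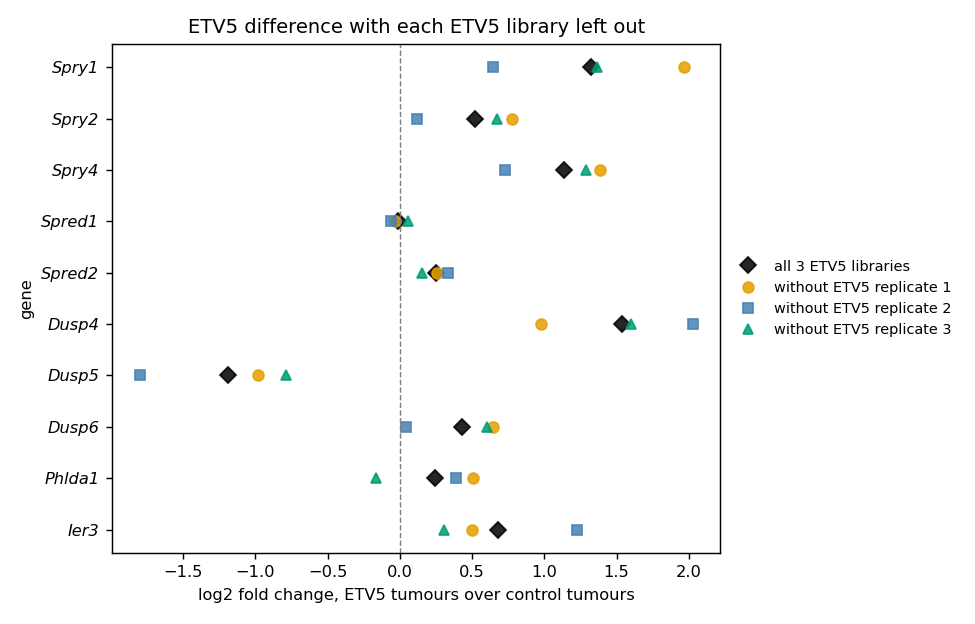
ETV5 over control log2 fold change (horizontal axis) of each gene with all 3 ETV5 libraries (diamond) and with each left out in turn. The square, without ETV5 replicate 2, lies left of the diamond for the 3 Sprouty genes and Dusp6 and right of it for Dusp4 and Ier3, and the Spred genes move little.

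Other values differed among the ETV5 libraries as well, and genes of the other lists stood highest or lowest in ETV5 replicate 2. Among the 20 receptors, Fgfr3 stood at 35.6, 239 and 47.6 CPM in ETV5 tumours, against 55.3, 62.0 and 51.5 CPM in control tumours. Il17rd, a membrane inhibitor of fibroblast growth factor signalling that is also named Sef, stood at 8.53, 42.4 and 7.09 CPM in ETV5 tumours, against 10.5, 7.93 and 8.94 CPM in control tumours. The ETS gene Etv1 stood at 23.9, 84.9 and 40.1 CPM in ETV5 tumours, against 32.3, 27.5 and 33.7 CPM in control tumours. These 3 genes, all highest in ETV5 replicate 2, were chosen after their values were seen. Other listed genes were lowest of the ETV5 libraries there, such as the receptor genes Erbb3, at 153, 20.3 and 76.6 CPM, and Pdgfra, at 130, 36.9 and 153 CPM. How many listed genes went each way was not counted. Of all 12404 genes, 17.8% were highest and 14.3% lowest of the 9 tumour libraries in ETV5 replicate 2. The 8 astrocyte markers, a list that holds Fgfr3, summed to 1092, 4535 and 3064 CPM in ETV5 tumours, against 3927 to 4503 CPM in control tumours and 6692 to 7883 CPM in cortex. The 10 pan-neuronal markers summed to 237, 849 and 346 CPM in ETV5 tumours, against 590 to 1261 CPM in control tumours, and the microglia and macrophage markers to 1401, 2470 and 2816 CPM in ETV5 tumours, against 2769 to 5820 CPM in control tumours. The 9 mural cell and fibroblast markers summed to 962 to 1650 CPM in ETV5 tumours, against 2405 to 3323 CPM in control tumours, without overlap. The part of these cells in the spread was not tested.

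In the wider pathway, ETV5 tumours differed from control tumours by no called gene among 25 other inhibitors, 25 cascade genes, 19 receptors and 24 ERK-responsive genes tested. Of all genes tested in this comparison, limma called 0.0%. The most abundant of each list gave log2 fold changes of -0.19 for Pebp1, a RAF inhibitor, 0.50 for Rps6ka1, an ERK-activated kinase gene, -1.11 for Csf1r, a receptor of microglia and macrophages, and 0.42 for Ccnd1, which codes for cyclin D1. The medians were -0.02, 0.08, -0.23 and 0.09 over the 4 lists, against 0.47 over the 10 feedback genes.

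NPY tumours were compared with control tumours to see how the genes differ between these groups. In this comparison the added neuropeptide gene and the code prefix of the libraries cannot be told apart. Spry2 and Spred1 were lower and Dusp4 higher in NPY tumours in every library, but none of the 10 genes passed limma's test, against 5.04% of all 14425 genes tested, 0.728% called higher and 4.31% called lower. Spred1 averaged 117 ± 3.03 CPM in NPY tumours and 182.5 ± 17.2 CPM in control tumours, with a log2 fold change of -0.55 (SE 0.13, limma, adjusted p = 0.0578). Spry2 averaged 22.4 ± 1.41 CPM in NPY tumours and 41.2 ± 8.07 CPM in control tumours, with a log2 fold change of -0.77 (SE 0.18, limma, adjusted p = 0.0607). Dusp4 averaged 44.7 ± 11.1 CPM in NPY tumours and 14.98 ± 9.13 CPM in control tumours, with a log2 fold change of 1.82 (SE 0.49, limma, adjusted p = 0.0869). Spry1, at 11.1 ± 1.84 CPM in NPY tumours and 17.2 ± 0.970 CPM in control tumours, had a log2 fold change of -0.54 (limma, adjusted p = 0.162). The other log2 fold changes were 0.33 for Ier3, 0.31 for Spred2, 0.25 for Spry4, -0.09 for Dusp6, -0.14 for Phlda1 and -0.64 for Dusp5. Without overlap between the groups, 4 genes were lower (Spry1, Spry2, Spred1 and Dusp5), against 18.4% of all genes, and 1 was higher (Dusp4), against 11.1%. The median log2 fold change was -0.11 over the 10 genes and 0.04 over all genes tested.

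The side of the threshold on which these genes fell depended on the method. With DESeq2, Spred1 (-0.55, adjusted p = 0.00229), Spry2 (-0.79, 0.00707) and Dusp4 (1.65, 0.0114) were called. With edgeR and TMM scaling Spred1 was called (-0.60, adjusted p = 0.0496), with total-read scaling Spred1 (-0.63, limma, adjusted p = 0.0387) and Spry2 (-0.83, 0.0480), and with all 12 libraries in one limma fit Spred1 (-0.58, adjusted p = 0.0230). All NPY libraries carry one code prefix and all control libraries the other, and a limma fit over the 9 tumour libraries with prefix as a term, which rests on ETV5 replicate 3 alone to separate prefix from group, gave -0.31 for Spred1, -0.27 for Spry2 and 2.07 for Dusp4, with no gene called in the whole table. The summed markers of several cell types did not overlap between these groups. The pan-neuronal sum was 99.2 to 211 CPM in NPY tumours and 590 to 1261 CPM in control tumours, and the astrocyte sum 490.2 to 1872 CPM in NPY tumours and 3927 to 4503 CPM in control tumours. The 8 oligodendrocyte markers summed to 618 to 1704 CPM in NPY tumours and 1938 to 4001 CPM in control tumours, and the 9 mural cell and fibroblast markers to 973 to 2300 CPM in NPY tumours and 2405 to 3323 CPM in control tumours. Limma called 6 of the 10 pan-neuronal, 2 of the 8 astrocyte, 1 of the 8 oligodendrocyte and 0 of the 9 mural cell and fibroblast markers. It also called 7 of the 8 cortical excitatory and 1 of the 6 oligodendrocyte precursor markers, and all of these calls were lower in NPY tumours. Of all genes tested, 4.31% were called lower. Among the 10 microglia and macrophage and the 8 endothelial markers 0 were called. The excitatory marker Neurod6 had 0 reads in the 3 NPY libraries. Spry2 and Spred1 were lower in NPY tumours than in cortex too (log2 fold changes -1.37 and -0.98), and the part of these cell types in their levels was not tested.

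Among the other pathway genes, Dusp16, a phosphatase gene for JNK and p38, was higher in NPY tumours, at 81.8 ± 7.78 CPM against 52.6 ± 4.72 CPM in control tumours (log2 fold change 0.72, limma, adjusted p = 0.0436). It was not called in any of the 6 fits with 1 library left out (limma, adjusted p = 0.0564 to 0.154), nor without a filter (0.0513), with edgeR and TMM scaling (0.0504), with total-read scaling (0.0541), with the replicate block (0.100), with all 12 libraries (0.111) or with the prefix term (0.719). The call held with DESeq2 (adjusted p = 0.00147) and with edgeR and RLE scaling (0.0456). It also held in limma with pseudocounts of 0.5 (0.0443) and 4 (0.0425) and a mean of at least 5 CPM (0.0475). Dusp16 was the sole call among 25 other inhibitors, 25 cascade genes, 19 receptors and 24 ERK-responsive genes tested, against 5.04% of all genes tested. Fgfr1, which stood at 213 ± 60.8 CPM in NPY tumours and 373 ± 73.3 CPM in control tumours, did not pass (-0.75, limma, adjusted p = 0.145).

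The ETV5 and NPY tumours share their controls, so they were also compared with each other directly, on recovered reads scaled together. All NPY libraries carry one code prefix and the ETV5 libraries are split between both, so prefix and group are only partly separated here. With prefix as a term, limma called 0 genes in this comparison. Spry1, Spry2, Spry4 and Spred1 were higher in ETV5 tumours in every library, with log2 fold changes of 1.91 (SE 0.61), 1.34 (SE 0.34), 0.92 (SE 0.38) and 0.58 (SE 0.15). None passed limma (adjusted p = 0.793 for each). The 4 genes without overlap compare with 7.47% of all 14023 genes tested that were higher without overlap, and 0 of the 10 were lower without overlap, against 4.98%. The limma fit called 0.0% of genes, with 831 at an unadjusted p under 0.05, edgeR called 0 and DESeq2 called 56. The 95% intervals, which are not adjusted for the number of genes tested, were 0.44 to 3.38 for Spry1 and 0.51 to 2.16 for Spry2. They were 0.015 to 1.83 for Spry4 and 0.22 to 0.93 for Spred1. Dusp4 had a log2 fold change of -0.25 between them, with an interval of -1.57 to 1.07. Dusp6 stood at 0.56, Phlda1 at 0.42, Ier3 at 0.39, Spred2 at -0.02 and Dusp5 at -0.53. Without ETV5 replicate 2, the log2 fold change fell to 1.24 for Spry1, 0.94 for Spry2 and 0.52 for Spry4, and the direction held.

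Both tumour groups with an added gene were set against cortex as well, where the same cortex libraries serve for each. In ETV5 tumours Ier3 (3.27), Spry4 (2.83), Dusp4 (1.94) and Spry1 (1.91) were higher than in cortex, and Dusp5 (-2.24), Spred2 (-0.44) and Spred1 (-0.39) were lower, with limma adjusted p of 0.000639 to 0.0470. These 7 calls compare with 63.8% of all 14493 genes tested, 31.8% higher and 32.0% lower, and the 5 genes higher and 1 lower without overlap in CPM with 41.8% and 31.6%. In NPY tumours Ier3 (2.87), Dusp4 (2.17) and Spry4 (1.89) were higher than in cortex, and Dusp5 (-1.73), Spry2 (-1.37), Spred1 (-0.98) and Spred2 (-0.43) were lower, with limma adjusted p of 3.6e-05 to 0.0345. These 7 calls compare with 70.9% of all 14613 genes tested, 35.6% higher and 35.4% lower, and the 3 genes higher and 4 lower without overlap in CPM with 42.1% and 35.2%. Scaling by total reads ended the calls of Spred2 in both comparisons (-0.25 in ETV5 tumours, -0.28 in NPY tumours) and of Spred1 in ETV5 tumours (-0.21). In ETV5 tumours the calls of Spred1 and Spred2 also ended without a filter (limma, adjusted p = 0.0570 and 0.0619) and with edgeR and TMM scaling (0.0603 and 0.0573), and that of Spred1 with edgeR and RLE scaling (0.0568). With 1 library left out at a time, Ier3 and Spry4 were called in every fit against cortex. In ETV5 tumours the call of Spry1 ended without ETV5 replicate 3 (1.95) or any 1 cortex library, that of Dusp4 without cortex replicate 1 (1.83) or 3 (1.88), and that of Dusp5 without cortex replicate 2 (-2.11). There Spred1 was not called without ETV5 replicate 1 or 3 or cortex replicate 2 or 3, and Spred2 without ETV5 replicate 1 or 2 or any 1 cortex library. In NPY tumours the call of Spred2 ended without NPY replicate 1 or 3 or cortex replicate 1 or 2.

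By mean level, ETV5 tumours stood first of the 4 groups for Spry1, Spry2, Spry4, Dusp4, Dusp6, Phlda1 and Ier3, and cortex stood first for Spred1, Spred2 and Dusp5. For Spry1 and Spry4 the ETV5 libraries did not overlap the next group, control tumours for Spry1 and NPY tumours for Spry4. For Spry2, Dusp4, Dusp6, Phlda1 and Ier3 they did overlap it. Cortex was last for Spry1, Spry4, Dusp4, Phlda1 and Ier3, without overlap to the next group for Spry4 and Ier3. NPY tumours were last for Spry2, Spred1 and Dusp6, without overlap for Spry2 and Spred1. Dusp6, among the most abundant of the 10 per length, overlapped between every pair of neighbouring groups.

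To see which genes ran most alike over the 12 libraries, the root mean square difference of log2(CPM + 1), after each gene's mean was subtracted, was taken against 12381 genes. The nearest gene was Vegfa for Ier3 (0.33, where the spread of Ier3 itself was 1.35), Crat for Spry4 (0.30, own spread 1.11), Cdh22 for Spry1 (0.47, own spread 0.96) and Mtss1l for Spry2 (0.29, own spread 0.61). It was Herpud2 for Spred1 (0.13), Hdac4 for Spred2 (0.11), Slc25a28 for Dusp6 (0.21), Prkx for Phlda1 (0.22) and Zfp641 for Dusp4 (0.56). No gene of the 10 was the nearest to another. The closest pairing within the set, by rank, was Spred1 for Spry2, at rank 36, followed by Dusp6 for Spry1, at rank 64. These values share the same libraries and are descriptions. Dusp5 was below 5 CPM on average and was not ranked.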

How the data were processed

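The authors deposited 2 tables of normalized signal, 1 with cortex, control and ETV5 libraries and 1 with control and NPY libraries. Per the labels' protocols, 300 ng of column-extracted total RNA went into stranded polyA libraries sequenced as paired ends. Tools named in the submitters' processing notes are STAR 2.5.0a, FastQC 0.11.7 with MultiQC 1.6, and DESeq2 1.30.1, on build mm10. Neither the program that counted reads nor its annotation is stated in the sources used here. Each library's deposited signal was a whole multiple of 1 step for 100% of values (tolerance 0.01 read), so it was read counts divided by a size factor, and whole reads were recovered. The control libraries had the same reads in both tables with different size factors. Dates stood in place of 27 gene symbols.

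Because the values were not raw counts, the test was limma 3.58.1 (mean-variance trend, robust moderation) on log2(value + 1), under R 4.3.3, with group as the sole term and only the groups compared. Genes had to pass the edgeR 4.0.16 filter (a minimum of 10 reads, scaled by library, in 3 libraries, and 15 reads overall); all 10 genes passed in each comparison. Tests were two-sided and adjusted by Benjamini-Hochberg over all genes tested. Comparisons across the tables used recovered reads scaled together by median of ratios. Alternatives were pseudocounts of 0.5 and 4, no filter, a mean of at least 5 CPM, edgeR with TMM or RLE and DESeq2 1.42.0 on recovered reads, scaling by total reads, the replicate block, all 12 libraries in one fit, the prefix of the library code as a term and each library left out. The fits were tested on simulated data with known changes. Positions and exon lengths are from GENCODE M21.

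The 10 genes, the other lists and the markers were chosen with earlier results of these data known. All 10 are named in each comparison; from each other list, up to 3 called genes per direction with the largest change and a mean of at least 5 CPM were eligible, or the 2 most abundant where none was called, and not all are reported. Replicate numbers come from the sample titles. Same-numbered libraries did not deviate together throughout (correlations of -0.39 to 0.37), so they were not treated as pairs.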

Additional observations from a re-analysis of the deposited data

Results flagged for a closer look

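For Spry1 and Spry2, each ETV5 library lay above the mean of the control tumours and each NPY library lay below it, so that the same contrast with control tumours pointed in opposite directions in the 2 groups. For Spry1 the log2 fold change of ETV5 over NPY tumours was 1.91 (SE 0.61), from 18.2, 113 and 39.7 CPM in ETV5 tumours and 10.3, 9.86 and 13.3 CPM in NPY tumours. The control tumours, which both contrasts share, had a mean of 17.2 CPM, and ETV5 replicate 1 stood at 1.06 times that mean. For Spry2 the log2 fold change of ETV5 over NPY tumours was 1.34 (SE 0.34), from 42.5, 104 and 45.9 CPM in ETV5 tumours and 23.8, 22.4 and 21.0 CPM in NPY tumours, with a control mean of 41.2 CPM. ETV5 replicates 1 and 3 stood at 1.03 and 1.11 times that mean, within the range of the control tumours. Without ETV5 replicate 2, the Spry2 log2 fold change of ETV5 over control tumours was 0.12. The difference between ETV5 and NPY tumours was tested directly and neither gene passed (limma, adjusted p = 0.793 for both). Groups of 3 libraries are too small for a search for single outlying samples, so ETV5 replicate 2 was described in the report and not put to such a test.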

How the results depend on the processing

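Of the alternatives other than leaving out a library, 581 values of single genes kept their direction and side of the threshold, 15 lost a call, 8 gained one and 20 reversed. In control tumours against cortex, Dusp6 stood at 0.15 with total-read scaling, and a fit over all 12 libraries called 4 of the 10 genes. In ETV5 against control tumours, Spred1 stood at 0.023 (edgeR TMM), 0.0055 (edgeR RLE), 0.014 (DESeq2) and 0.10 (prefix term), Phlda1 at -0.12 (prefix term), and DESeq2 called 75 genes. In NPY against control tumours, 1 of the 10 genes was called with edgeR TMM, 3 with DESeq2, 2 with total-read scaling and 1 with all 12 libraries. Of all genes, 1839 were called with DESeq2, 1128 with all 12 libraries and 0 with the prefix term, which put Dusp5 at 0.62, Dusp6 at 0.47 and Ier3 at -0.75. In ETV5 against NPY tumours, 1 gene was called without a filter, 56 with DESeq2 and 5 with all 12 libraries; Dusp4 stood at 0.018 (edgeR TMM), 0.0093 (edgeR RLE) and 0.0017 (DESeq2), and Spred2 at 0.034 (total-read scaling) and 0.14 (prefix term). Spry2 in ETV5 tumours against cortex stood at 0.11 (edgeR TMM), 0.095 (edgeR RLE), 0.10 (DESeq2) and 0.16 (total-read scaling), and Spry1 in NPY tumours against cortex at 0.0058 (edgeR TMM) and 0.12 (total-read scaling). The cause of these changes was not tested.

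With each library left out in turn, genes called in NPY against control tumours ranged from 1 (without control replicate 2) to 571, with 78 without control replicate 3, 138 without control replicate 1 and 125 without NPY replicate 1, and in ETV5 against NPY tumours from 0 to 1. Of the 10 genes, 3 to 6 were called in ETV5 tumours against cortex. Log2 fold changes that changed sign ranged as follows. Against cortex, control tumours gave -0.071 to 0.92 for Dusp4 and -0.16 to 0.21 for Dusp6, ETV5 tumours gave -0.42 to 0.23 for Spry2, and NPY tumours gave -0.13 to 0.042 for Spry1, -0.14 to 0.38 for Phlda1 and -0.34 to 0.063 for Dusp6. Against control tumours, ETV5 tumours gave -0.17 to 0.50 for Phlda1 and -0.073 to 0.053 for Spred1, and NPY tumours gave -0.24 to 0.053 for Dusp6 and -0.44 to 0.056 for Phlda1. ETV5 against NPY tumours gave -0.84 to 0.26 for Dusp4 and -0.11 to 0.075 for Spred2.

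The replicate block, which pairs libraries that share only a number, called 264 genes in NPY against control tumours, where 727 were called without it. Within ETV5 tumours against cortex it ended the calls of Spred1 and Spred2. Under a mean of at least 5 CPM Dusp5 was not fitted. With 6 to 34 reads per library, Dusp5 is limited by counting error, and with 3 libraries a group the wide spread of ETV5 tumours limits what can be called.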
